A study of Homo sapiens and Mus musculus with 9 samples.

Results

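The regions described here are the liver eCLIP peaks that lie close to one another on a strand, so that several peaks mark 1 stretch of the genome. They were chosen from the deposited liver peak list by position alone: peaks on chromosomes 1 to 19 and X were chained where the gap to the next peak on the same strand was at most 20 kb, and a chain of 2 or more peaks was kept as a multi-peak locus. This gave 512 member peaks in 163 loci, of 2162 liver peaks on these chromosomes in 1813 loci of any size. The share of peaks in multi-peak loci was 23.7% (exact Clopper-Pearson 95% interval 21.9 to 25.5%). Such intervals, here and below, cover counting error only and treat peaks as independent. Peaks of a locus become members together, so the intervals may be too narrow. The other 1650 peaks stood alone.

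In the study, RNA in contact with the pregnane X receptor (PXR) was sequenced in several kinds of cell by enhanced crosslinking immunoprecipitation, eCLIP. The liver groups were immunoprecipitates (IP) with an antibody to PXR in 2 replicate libraries and an input in 1 library, all from mice that the labels call hPXR or humanized PXR, with normal tissue and no drug treatment named; strain, sex, age, the promoter of the human gene and any pooling of animals are not stated in the labels. The study also covered 2 human cell lines. LS174T (colorectal adenocarcinoma) had a PXR IP from PXR knockout cells, a PXR IP from wild-type cells and a wild-type input, with 1 library each. HepG2 (hepatocellular carcinoma) had 2 IP libraries made with an antibody to the HA tag and 1 input. A single peak list stands for the liver IP group. It was taken as liver from the name of the list, since its peak names begin with S1 and name no tissue, and whether it comes from 1 or both IP libraries is not stated. With 1 list, no value below has a spread between replicates, and no test between groups was made.

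PXR is a nuclear receptor that senses drugs, bile acids and other small molecules in liver and gut, and it is best known for binding DNA and raising the transcription of genes for drug metabolism and transport. eCLIP measures another property, contact with RNA: ultraviolet light links a protein to RNA that it touches, RNase trims the RNA, and the recovered fragments are sequenced and placed on the genome. Because the RNA of a gene is spliced, fragments of 1 transcript can fall on exons that lie far apart in the genome, and an abundant RNA can contribute fragments at many places. A mouse gene annotation was not used here, so the loci are given by position in mm10 and strand, without gene names, exons or sequence, and the label of liver was not checked against marker genes. Whether the peaks of a locus belong to 1 transcript was not tested.

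The peak calls, with their positions and strands, chose the members. All measures of a peak come from the same calls and are therefore given as descriptions without a test. Of the authors' own values for each peak, the fold enrichment over background near the peak, the −log10 p-value and the −log10 q-value are used below. From the fold and the p-value the number of reads stacked at the summit and the number of reads on that strand in the surrounding 10 kb window were worked out, and both were unique for all 512 members. The formula for the fold holds only these counts and no term for the input library. Fold and depth below are therefore not enrichment over input. The abundance of an RNA was not separated from its contact with PXR. Reads may include PCR copies of 1 molecule.

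Most multi-peak loci were small. There were 98 loci with 2 peaks, 29 with 3, 12 with 4, 7 with 5, 7 with 6 and 1 with 7. Above these stood 2 loci with 8 peaks, 1 with 9, 2 with 11, 2 with 12 and 2 with 13. The 24 loci with at least 5 peaks held 181 peaks, which is 35.4% of the members. Both strands were used alike, with 86 loci and 266 members on the plus strand and 77 loci and 246 members on the minus strand. Members made up 24.4% of all plus-strand peaks and 23% of all minus-strand peaks. Overlap with a peak on the opposite strand was rare in the list as a whole. Of the 2162 liver peaks 12 had one, all of them among the 1650 lone peaks (0.727%). With so few overlaps, their absence among the members is not read as a difference.

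Locus span, from the start of the first to the end of the last peak, had a median of 6662 bp, with quartiles of 1592 and 14002 bp and a range of 487 to 75047 bp. The median was 3213 bp for loci of 2 peaks, 11368 bp for those of 3 or 4, and 17708 bp for those of at least 5. In all, 58 loci (35.6%) were longer than 10 kb and 19 (11.7%) were longer than 20 kb, while 23 were shorter than 1 kb. The 163 loci together spanned 1.58 Mb.

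Within the loci 349 gaps separated neighbouring peaks. Their median was 1928 bp, with quartiles of 538 and 6134 bp, and the narrowest was 32 bp. Of these gaps 124 (35.5%) were at most 1000 bp and 241 (69.1%) at most 5000 bp. The gaps were spread over all scales below the limit: 56 lay between 1000 and 2000 bp, 61 between 2000 and 5000 bp, 62 between 5000 and 10000 bp and 46 between 10000 and 20000 bp. The limit of 20 kb did not fall at a break in the data, since 18 gaps lay between 15 and 20 kb and 11 between 20 and 25 kb. Of all 2122 neighbouring pairs on a strand, 1018 were more than 1000000 bp apart.

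**Figure D1:**
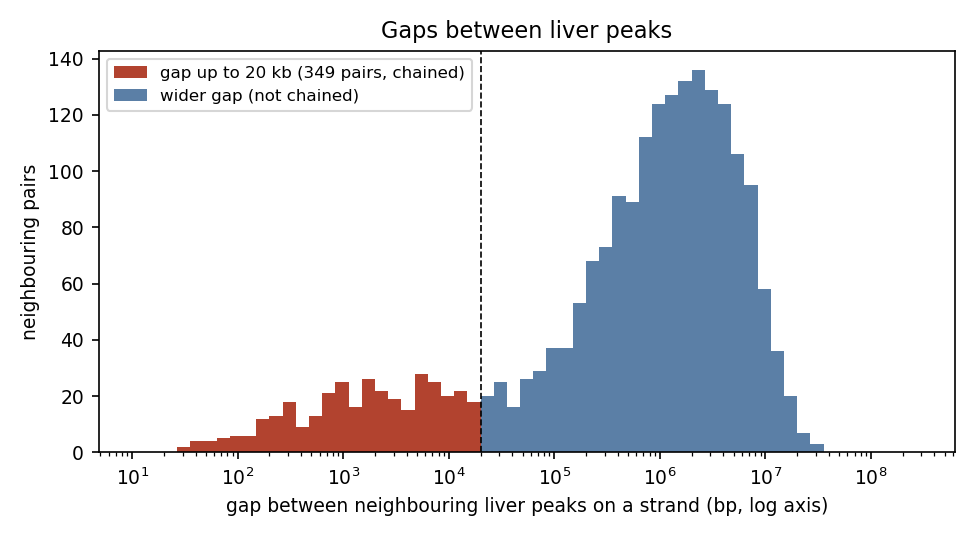
Number of neighbouring pairs of liver peaks on a strand (vertical axis) by the gap between them in bp (horizontal log axis), for chromosomes 1 to 19 and X. The 349 gaps of at most 20 kb, which define the loci, form a low, broad shoulder with a median of 1928 bp, and the counts continue without a break across the dashed line at 20 kb toward the large group of gaps near and above 1000000 bp.

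The pairs just inside the limit were a minus-strand pair on chromosome 1 with a gap of 19947 bp and summits of 16 and 13 reads, and a plus-strand pair on chromosome 17 with a gap of 19539 bp and summits of 31 and 29 reads. Just outside were a plus-strand pair on chromosome 3 with a gap of 20102 bp and summits of 12 and 21 reads, and a plus-strand pair on chromosome 6 with a gap of 20323 bp and summits of 16 and 14 reads. The 5 pairs nearest to the limit held 3 to 45 reads per summit inside it and 4 to 28 outside it, so their depths overlapped.

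Multi-peak loci occurred on all 20 chromosomes considered, but loci with at least 5 peaks on 12 of them. Chromosome 17 had the highest share of its peaks in multi-peak loci, 43 of 101 (42.6%), against a background of 23.7% over all liver peaks. Chromosome 19 followed with 23 of 70 (32.9%) and chromosome 9 with 33 of 102 (32.4%). The lowest shares were those of chromosome 13, 2 of 58 (3.45%), chromosome 15, 8 of 80 (10.0%), and chromosome X, 5 of 48 (10.4%). On chromosome 17 the 3 loci with at least 5 peaks held 25 of the 43 members. Such shares rest on few loci, from 1 on chromosome 13 to 14 on chromosomes 7 and 11.

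The pair of loci with most peaks had 13 each, yet differed in size and depth. The first lay on the minus strand of chromosome 9 (mm10, chr9:103208761-103230249) and spanned 21.5 kb. Its summits held, in the direction of the strand, 81, 170, 92, 174, 146, 193, 260, 107, 176, 63, 213, 103 and 157 reads, 1935 in all. The highest summit was the seventh, and no summit held fewer than 63 reads. The second lay on the minus strand of chromosome 1 (chr1:71585579-71653100) and spanned 67.5 kb. Its first summit in the direction of the strand held 142 reads, and the other 12 held 24, 29, 22, 26, 18, 21, 24, 33, 22, 21, 28 and 37. The first summit therefore stood apart from an even row of shallow ones. The chromosome 9 locus had 90.0 summit reads per kb of span and the chromosome 1 locus 6.62.

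Other wide loci differed in how even they were. A plus-strand locus on chromosome 1 (chr1:67156159-67231205) was the widest of all, with 12 peaks over 75 kb and summits of 22 to 48 reads with a median of 27. A minus-strand locus on chromosome 6 (chr6:128483456-128526661) had 12 peaks over 43.2 kb and summits of 16 to 75 reads with a median of 50. A plus-strand locus on chromosome 17 (chr17:12382090-12419443) had 9 peaks over 37.4 kb, and its summits, from 25 to 41 reads, were among the most uniform. The ratio of its highest to its lowest summit was 1.64. Completing the 5 widest, a minus-strand locus on chromosome 5 (chr5:89417400-89457764) had 6 peaks over 40.4 kb, with 41, 53, 105, 58, 19 and 39 reads along the strand.

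The deep and compact loci looked different. On the plus strand of chromosome 5 (chr5:90460934-90474859), 11 peaks lay within 13.9 kb and held 314, 125, 296, 196, 190, 326, 275, 240, 314, 485 and 279 reads along the strand, 3040 in all. Only the second summit fell below 190 reads, and the highest was the tenth. A minus-strand locus on chromosome 17 (chr17:57203896-57226836) had 11 peaks over 22.9 kb with 70 to 207 reads and a median of 108, or 1197 in all. On the minus strand of chromosome 7 (chr7:105591501-105600063), 5 peaks within 8.56 kb held 199, 339, 174, 227 and 279 reads.

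**Figure D2:**
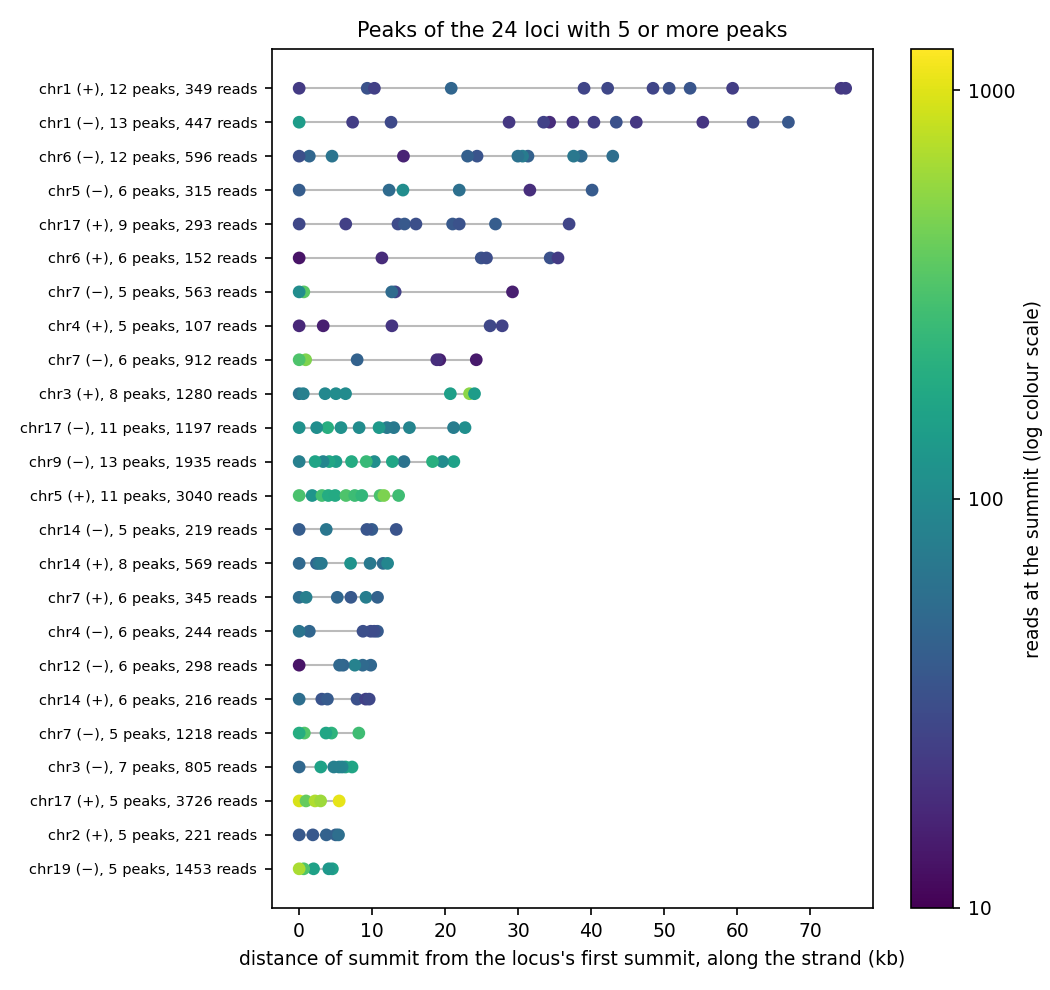
Each row is 1 of the 24 loci with at least 5 peaks, ordered by span with the widest at the top, and each point is a summit at its distance in kb from the first summit along the strand (horizontal axis). Colour gives the reads at the summit on a log scale. The widest loci, up to 75 kb, are dark and sparse, and the loci with more than 1000 summed reads span at most 24.3 kb.

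The locus with most reads among those with at least 5 peaks lay on the plus strand of chromosome 17 (chr17:39843010-39848922). It held 942, 400, 706, 616 and 1062 reads at 5 summits within 5.91 kb, or 630 reads per kb, and its peaks were broad, from 587 to 867 bp. Peaks covered 61.3% of its span, against a median of 12.7% over the 24 loci. The surrounding window held up to 7690 reads, so the authors' fold enrichment was only 2.59 to 8.97 despite the depth. The sequence of this locus was not examined, so whether it is repeated elsewhere in the genome was not tested. A minus-strand locus on chromosome 19 (chr19:5797036-5801972) was similar in compactness, with 678, 331, 158, 131 and 155 reads along 4.94 kb. Its reads were highest at the first summit along the strand, and its last but one peak had the lowest fold of any member, 1.95, with 131 of 3339 window reads at the summit.

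In a few loci most reads sat at 1 end. On the minus strand of chromosome 7 (chr7:19673139-19697639), 6 peaks over 24.5 kb held 327, 492, 45, 19, 15 and 14 reads along the strand, a 35.1-fold range. A second chromosome 7 locus on the same strand (chr7:46711910-46741387) held 106, 363, 53, 26 and 15 reads over 29.5 kb, a 24.2-fold range. These were the 2 loci of 24 in which the highest summit held over 50% of the summed reads, 53.9% and 64.5%. In each, the deep summits lay within 1 kb of the first summit and the shallow ones followed after gaps of several kb. On the plus strand of chromosome 3 (chr3:83007893-83032145) the order was the other way round: 8 summits held 66, 81, 95, 104, 102, 150, 539 and 143 reads, and the high ones came last, after a gap of 14075 bp.

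**Figure D3:**
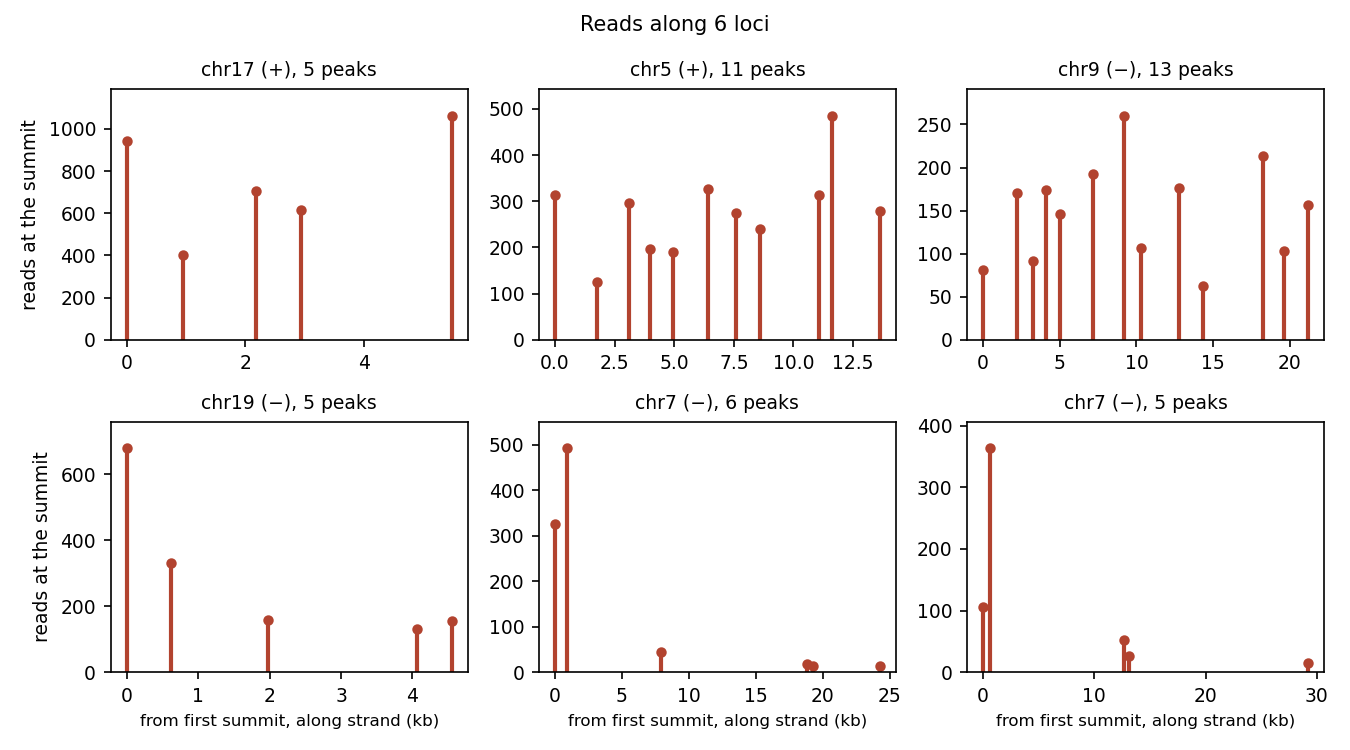
Reads at each summit (vertical axis) by distance in kb from the first summit along the strand (horizontal axis), for the 4 loci with most summed reads among those with at least 5 peaks and the 2 with the widest ratio of highest to lowest summit. Each panel has its own scale. Reads stay between 125 and 485 along the chromosome 5 locus and between 63 and 260 along the chromosome 9 locus, while both chromosome 7 loci drop to 15 or fewer reads at their last summit.

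Over the 24 loci the ratio of highest to lowest summit had a median of 2.80 (range 1.54 to 35.1), and in 17 it was under 5. The most uniform was a plus-strand locus on chromosome 2 (chr2:173153342-173159089), with 38, 37, 45, 44 and 57 reads. The highest summit was the first along the strand in 4 loci, the last in 3 and an inner one in 17. Each of these loci has more inner summits than end ones, so no preference is read from the larger inner count. Among all 65 loci with at least 3 peaks the highest was first in 17, last in 16 and inner in 32. Among the 98 pairs it was the first in 51 and the second in 47. Tied summits were counted at the first of them, as in the pairs of 13 and 13, 11 and 11, and 10 and 10 reads. The counts for the first and the last summit were thus close.

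The remaining loci with at least 5 peaks held between 107 and 569 summed reads, apart from 1 on chromosome 3 described below. A plus-strand locus on chromosome 7 (chr7:140763882-140774845) had 6 peaks of 38 to 80 reads over 11 kb. On the minus strand of chromosome 12 (chr12:103946798-103956890), 6 peaks held 13 to 86 reads over 10.1 kb. A minus-strand locus on chromosome 4 (chr4:63143173-63154100) had 6 peaks of 30 to 64 reads, and a plus-strand locus on chromosome 14 (chr14:65971768-65981554) had 6 peaks of 25 to 56 reads. Both were led by their first summit along the strand. The plus-strand loci on chromosome 6 (chr6:121840128-121875771, 6 peaks of 13 to 34 reads over 35.6 kb) and chromosome 4 (chr4:106561122-106589168, 5 peaks of 15 to 28 reads over 28.0 kb) were the shallowest, with 152 and 107 summed reads.

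Among the 10 loci with most reads were also 2 that had only a pair of peaks. The plus-strand pair on chromosome 1 (chr1:87776968-87784950) held 3858 and 914 reads at summits 7.59 kb apart, the largest sum of any multi-peak locus at 4772. Its summits took 96.3% and 96.0% of the reads in their windows, with authors' folds of 47.6 and 45.7. The minus-strand pair on chromosome 7 (chr7:111075893-111082878) held 15 reads at its first summit along the strand and 999 at the second, where 97.7% of the window's reads lay. In the loci with at least 5 peaks no peak held all the reads of its window, and the median share at the summit was 17%. A neighbouring peak within 5 kb adds to the window count, so low shares in such loci follow partly from the rule.

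At the other end were pairs of very few reads. A plus-strand pair on chromosome 1 (chr1:192796829-192806052) held 3 and 5 reads, and a minus-strand pair on chromosome 7 (chr7:99839153-99858853) held 5 and 4. Pairs had a median of 45.5 summed reads, loci of 3 or 4 peaks 117, and loci of at least 5 peaks 505. The summits themselves were deeper where there were more of them, with medians of 22, 35 and 53 reads in the same order.

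Member peaks were deeper than lone peaks in this list. The median was 35 reads at the summit (quartiles 19 and 67) for members and 9 (quartiles 5 and 19) for lone peaks. At least 10 reads were found at 490 of 512 members (95.7%), against 58.2% of all liver peaks, and at least 100 reads at 89 members (17.4%), against 8.37% of all. A −log10 q of at least 5 was reached by 493 members (96.3%), against 74.9% of all. Since the same calls chose the members, nothing is read from these counts.

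The authors' fold enrichment was nearly alike, with medians of 8.02 in members and 7.63 in lone peaks, although the members held more reads. The median window held 152 reads around members and 12 around lone peaks. Members had a median of 24.4% of the window's reads at the summit (quartiles 16.0 and 38.1%), and lone peaks 100% (quartiles 68.8 and 100%). All reads of the window lay at the summit in 13 members (2.54%), against 41.2% of all liver peaks. The called peaks within reach of the window, summed over their summits, accounted for a median of 55.6% of the window's reads around members. The same median was 100% around lone peaks. The rest of the window's reads lay off these summits, either inside called peaks or outside them, and the window can reach beyond the locus. Neighbouring peaks within 5 kb raise the window count and so lower both the fold and the share at the summit by their definition. Fold therefore does not stand for depth in this comparison, and part of the difference in shares follows from the rule.

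Members were also wider. Their median width was 245 bp (quartiles 207 and 309 bp) and that of lone peaks 200 bp (quartiles 200 and 204 bp). The narrowest width in the list, 200 bp, was that of 83 members (16.2%), against 48.1% of all liver peaks. A width of at least 400 bp was found for 58 members (11.3%), against 4.53% of all. The widest member, 1232 bp on the plus strand of chromosome 15 (chr15:3279282-3280513), held 83 reads at its summit.

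**Figure D4:**
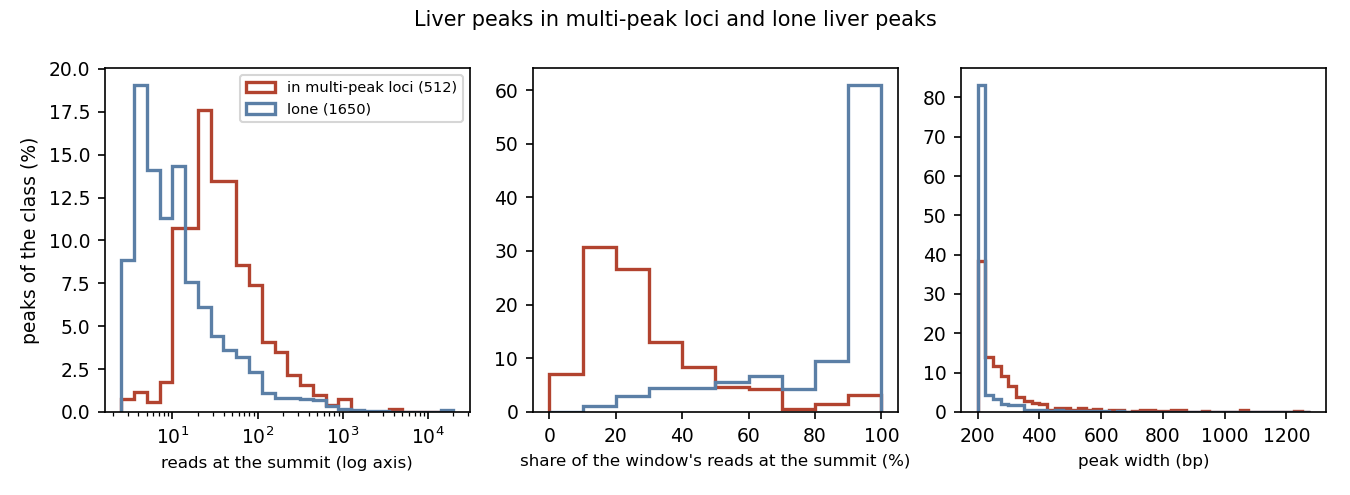
Distribution of reads at the summit (left, log axis), share of the window's reads at the summit (middle, %) and peak width (right, bp), as percent of the 512 peaks in multi-peak loci and of the 1650 lone peaks; 1 lone peak beyond the read axis is drawn in its last bin. Medians are 35 and 9 reads, 24.4 and 100%, and 245 and 200 bp, members first.

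The share of peaks in multi-peak loci depended on depth. Of peaks with 3 to 6 reads 11 of 590 (1.86%, exact interval 0.934 to 3.31%) were members, and of those with 7 to 9 reads 11 of 313 (3.51%, 1.77 to 6.20%). The share was 23.3% (19.6 to 27.4%) with 10 to 19 reads and 48.0% (43.1 to 52.9%) with 20 to 49. It was highest, 60.2% (49.5 to 70.2%), with 100 to 199 reads and 37.5% (27.4 to 48.5%) with 200 or more. A shallow peak was thus rarely near another. Of the 88 deepest peaks 33 were members, a share lower than in the bin below but above the 23.7% over all liver peaks. Reads and membership come from the same calls, so these shares are descriptions only.

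**Figure D5:**
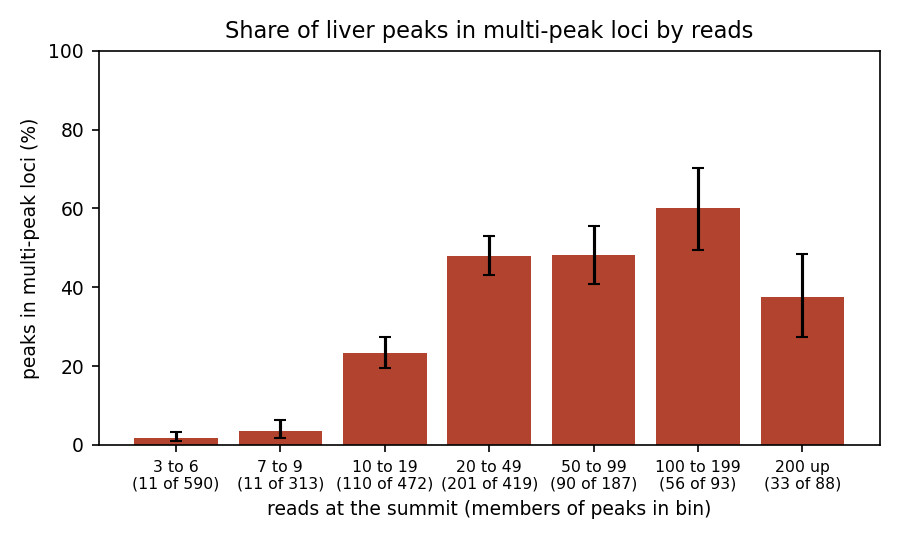
Percent of liver peaks that lie in multi-peak loci (vertical axis) by reads at the summit (horizontal axis, with members and peaks per bin). Error bars are exact Clopper-Pearson 95% intervals for counting error, which treat peaks as independent although peaks of a locus are not. The share is 1.86% at 3 to 6 reads, 60.2% at 100 to 199 reads and 37.5% at 200 reads or more.

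Some multi-peak loci were neighbours across strands. Within 20 kb of a multi-peak locus on the opposite strand there were 4 such pairings. On chromosome 3, the plus-strand locus of 8 peaks and 1280 reads described above was followed after 10079 bp by a minus-strand locus (chr3:83042225-83049766) of 7 peaks with 50, 161, 81, 87, 90, 164 and 172 reads. Their downstream ends faced each other. On chromosome 14, a plus-strand locus (chr14:30889625-30901981) of 8 peaks with 47 to 119 reads lay 6470 bp from a minus-strand locus (chr14:30908452-30921996) of 5 peaks with 35 to 67 reads, again tail to tail. The chromosome 7 locus at 46711910 to 46741387 lay head to head with a plus-strand pair of 414 summed reads, 12035 bp away. On chromosome 9 a minus-strand pair of 82 summed reads (46232983 to 46234535) lay inside the span of a plus-strand locus with 112, 350, 18 and 21 reads along the strand (chr9:46228989-46243439).

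Over longer distances, multi-peak loci on either strand within 200 kb of each other formed 14 neighbourhoods with 32 loci, a distance chosen after the values were seen. The largest by number lay on chromosome 16 (chr16:22892132-23111556), where 4 plus-strand loci of 3 peaks each spread over 219 kb. Their summits held 110, 117 and 411 reads in the first, 41, 25 and 57 in the second, 20, 20 and 36 in the third, and 61, 289 and 109 in the last. The outer loci were thus deep and the inner ones shallow. On chromosome 12 (chr12:103730136-103956890), 3 minus-strand loci with 11 peaks spread over 227 kb and held 492 reads. A further neighbourhood on chromosome 12 (chr12:104340551-104414410) had 2 plus-strand loci of 4 peaks each with 432 and 332 reads. In the second of these the last summit along the strand held 199 reads and the first 14. Near-identical gene copies can share reads, and how such reads were mapped is not stated in the labels. Whether these neighbourhoods or any other loci hold such copies was not tested.

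The same chaining rule was applied to the human lists to place the liver share beside them, on chromosomes 1 to 22 and X. Members made up 23.7% of liver peaks, 213 of 1530 HepG2 peaks (13.9%, exact interval 12.2 to 15.8%) and 655 of 2071 peaks (31.6%, 29.6 to 33.7%) of the LS174T list whose peaks are named WT. The LS174T list whose peaks are named KO had 4 of 36 (11.1%, 3.11 to 26.1%). The record assigns the 2 LS174T lists to the wild-type input and the wild-type IP library, which differs from their names, so no genotype or fraction is taken as settled. Liver had 24 loci with at least 5 peaks and up to 13 peaks in 1 locus. HepG2 had 5 such loci and up to 7 peaks, and the LS174T list named WT had 9 and up to 7. With peaks of at least 10 reads alone the shares were 38.0% in liver, 24.8% in HepG2 and 42.7% in the LS174T list named WT. Median spans were 6.66, 6.49 and 7.80 kb in the same order. The lists differ in genome, depth and antibody, each stands alone without replicate values, and these differences were not tested.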

How the data were processed

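The eCLIP series on RNA bound by PXR had 9 libraries, which include inputs and an IP from PXR knockout cells. The 4 deposited peak lists were used, mainly that of liver IP. Cutadapt, BWA and MACS2 are named in the submitters' processing notes, with builds hg38 and mm10 but no versions or settings. The deposited files, in the layout of MACS2 with no header, hold the authors' score per peak (10 times the −log10 q without its decimals, in all 2178 liver rows, not used further), the authors' fold enrichment (a ratio over local background), and the authors' −log10 p-value and −log10 q-value. Peak names show that each strand was called apart; whether replicates were pooled is not stated.

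Reads were recovered as whole numbers n and W that satisfy fold = (n + 1) / (0.02 W + 1) and the Poisson p-value of more than n reads within 0.001 plus a relative rounding term, where W is the count in the 10 kb window (step 0.02 for 200 bp extension). On simulated liver peaks, made with the same formula, 2177 of 2177 were recovered with 0 wrong, and chaining recovered 40 of 40 planted loci. These counts cover only the arithmetic and the chaining steps. Whether the formula holds for the deposited peaks was not tested by them. As a check on the window, W was at least the sum of both summits in all 686 ordered pairs of liver peaks 400 to 4800 bp apart, and in 737 of 846 pairs 5200 to 20000 bp apart. Library totals are not known from these lists. Positions are 1-based. Intervals are Clopper-Pearson. Python 3.11.15, pandas 2.3.3, scipy 1.17.1 and matplotlib 3.10.9 were used. The loci described by name are those with at least 5 peaks, the 10 with most reads and the 5 widest; neighbours, the shallowest pairs, the widest peak and the pairs at the 20 kb limit were chosen after their values were seen. The members and lists were chosen with earlier results of these data known. The 25 mouse gene lists that had been planned, the gene classes and the sequences need a mouse annotation or genome not used here, and were not run.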

Additional observations from a re-analysis of the deposited data

Results flagged for a closer look

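The liver list also held peaks outside the chromosomes considered: 8 on the mitochondrial genome, 5 on chromosome Y and 3 on scaffolds, or 16 of 2178 (0.735%). They are listed because they lie in data not used for the loci above. Under the same chaining rule 13 of the 16 fell into 4 multi-peak loci, 5 peaks on the plus and 3 on the minus strand of the mitochondrial genome, 3 on the plus strand of chromosome Y and 2 on a scaffold. They were left out of the counts of loci and members given above.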

How the results depend on the processing

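No paired analysis was possible because the lists hold no values per replicate, and for the same reason no replicate could be left out. The number of loci, 163, became 96 with a gap of at most 1 kb and 65 when at least 3 peaks were required, and ranged from 135 to 194 under the other alternatives run. The share of peaks in loci, 23.7%, was 10.2%, 17.4%, 21.0% and 28.2% with gaps of 1, 5, 10 and 50 kb, 26.3% without regard to strand, 29.8% for −log10 q of at least 5, 38.0% for at least 10 reads, 14.6% for at least 3 peaks per locus, and 24.1% with all chromosomes and scaffolds. The median span, 6.66 kb, was 1.84, 3.76 and 13.8 kb with gaps of 5, 10 and 50 kb. The median reads of members, 35, were 41 and 29 with gaps of 5 and 50 kb and 36 for −log10 q of at least 5, and the median of lone peaks, 9, was 14 with that q limit and 9 with both gaps. Members stayed deeper than lone peaks in these alternatives. A wider gap joins more peaks and a stricter limit removes shallow, mostly lone peaks, by construction. Alternatives that need a mouse annotation (loci by gene, exon shares, gene lists) were not run.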
